A study of Mus musculus with 6 samples.

Results

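The Hox genes encode homeodomain transcription factors and lie in 4 clusters, Hoxa on chromosome 6, Hoxb on chromosome 11, Hoxc on chromosome 15 and Hoxd on chromosome 2 of the mouse. Every gene whose symbol is Hoxa, Hoxb, Hoxc or Hoxd followed by a paralog number was taken, which gave 36 of the 20033 genes in the deposited table. Of these, 11 belong to the Hoxa cluster, 9 to Hoxb, 7 to Hoxc and 9 to Hoxd. Hoxb1, Hoxc12 and Hoxc13 were not analysed here.

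Gene expression was measured by RNA sequencing of poly(A)-selected RNA from mouse mesonephroi dissected at E12.5 from 6 male embryos, for a study of Wnt9b in the development of the Wolffian duct and the action of androgens. The mesonephros is a transient kidney whose duct, the Wolffian duct, becomes the epididymis and vas deferens in males. The 3 control embryos are heterozygous for Wnt9b according to their genotype label and Wnt9b+/+ according to the design text, and they are called controls here. The 3 knockout embryos are Wnt9b-/-, a global loss of this secreted Wnt ligand that is not limited to 1 cell type. The labels number the mice 1 to 3 in both groups and give neither litter nor batch, strain or the deleted part of the gene.

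Within a cluster, all coding genes are read from the same strand, and the genes are ordered along the chromosome as they are used along the body axis. Genes of low paralog number lie at the 3′ end and act in anterior regions, and genes of high number lie at the 5′ end and act towards the tail, in the limb and in the genital tract. Genes of the same number in different clusters are paralogs that often act together. Hox proteins bind DNA with partner homeodomain proteins of the Pbx, Meis and Pknox families. In the embryonic kidneys and ducts, the paralogs of group 11 are needed for the metanephros, Hoxa10 and Hoxa11 give the vas deferens its identity, and group 13 genes act in the cloaca and the caudal genital tract.

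The 6 libraries held at least 28408222 to 32974958 reads assigned to genes, as recovered from the deposited values. Markers of the mesonephros were present throughout. The 6 markers of mesonephric mesenchyme summed to between 1519 and 1727 TPM (a transcript level corrected for gene length and library size) with Col1a1 giving the most. Within that list limma called Tcf21 higher (log2 difference 0.62, adjusted p = 0.0197) and Pdgfrb lower (-0.60, adjusted p = 0.0137). Osr1, not called, was at 34.0, 36.6 and 39.8 TPM in controls and at 63.6, 60.4 and 28.1 TPM in knockouts 1, 2 and 3. Pdgfra, also not called, was at 133, 134 and 142 TPM in controls and at 111, 115 and 137 TPM in knockouts. The 9 markers of duct and tubule summed to 282, 298 and 309 TPM in controls and to 275, 252 and 229 TPM in knockouts, without overlap, and 2 of them passed limma as lower, Lhx1 (-1.32, adjusted p = 0.0123) and Calb1 (-1.35, adjusted p = 0.0281). The 4 endothelial markers, none of them called by limma, summed to 237 to 255 TPM in controls and 192 to 216 TPM in knockouts. The authors' deposited table calls 2 of them lower, Cdh5 and Kdr. The 6 gonadal markers summed to 76.7, 57.2 and 52.3 TPM in controls and to 185, 156 and 106 TPM in knockouts, and 3 of them passed limma as higher, Nr5a1 (1.62, adjusted p = 0.0281), Gata4 (1.82, adjusted p = 0.0354) and Lhx9 (1.53, adjusted p = 0.0463). The others, Amh, Sox9 and Dhh, overlapped between groups. Amh was at 10.5, 5.87 and 4.33 TPM in controls and at 67.8, 44.7 and 9.58 TPM in knockouts. Sox9 was at 32.2 ± 0.517 TPM in controls and 31.4 ± 7.04 TPM in knockouts. In a bulk sample, fewer cells of a type and less RNA per cell cannot be told apart. Knockout 3 stood apart from knockouts 1 and 2 for the most 5′ Hox genes, so results that rest on these genes are also given without it. It was singled out by the values of these same genes. Their adjusted p-values without knockout 3 are therefore descriptive and no independent evidence of a difference.

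The homeobox, the stretch of 180 bases that encodes the DNA-binding homeodomain, is what the members share most closely. Over the 36 pairs of Hox genes with the same paralog number, the median identity of the homeoboxes in the GENCODE M21 transcripts was 81.9% (range 67.2% to 93.9%), against 61.7% over the 594 other pairs. The longest run shared by any pair was 52 bases, in reads of 150 bases.

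In control mesonephros, Hox transcripts were found along the whole of every cluster measured here except at Hoxb13. The highest was Hoxa5, a gene known for its part in the lung and the upper trunk, at 176, 179 and 165 TPM in controls 1, 2 and 3. Its lowest control value lay above the highest of any other Hox gene. The next was Hoxc8, a trunk gene known for its part in thoracic vertebrae and motor neurons, at 115, 145 and 129 TPM. Hoxc6 followed with 103 ± 4.75 TPM (mean ± SD, n = 3), Hoxc4 with 96.4 ± 7.83 TPM and Hoxc5 with 87.9 ± 5.74 TPM. The ranges of Hoxc6 and Hoxc4 overlapped, as did those of Hoxc4 and Hoxc5, so their order was not clear of the spread between embryos.

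**Figure D1:**
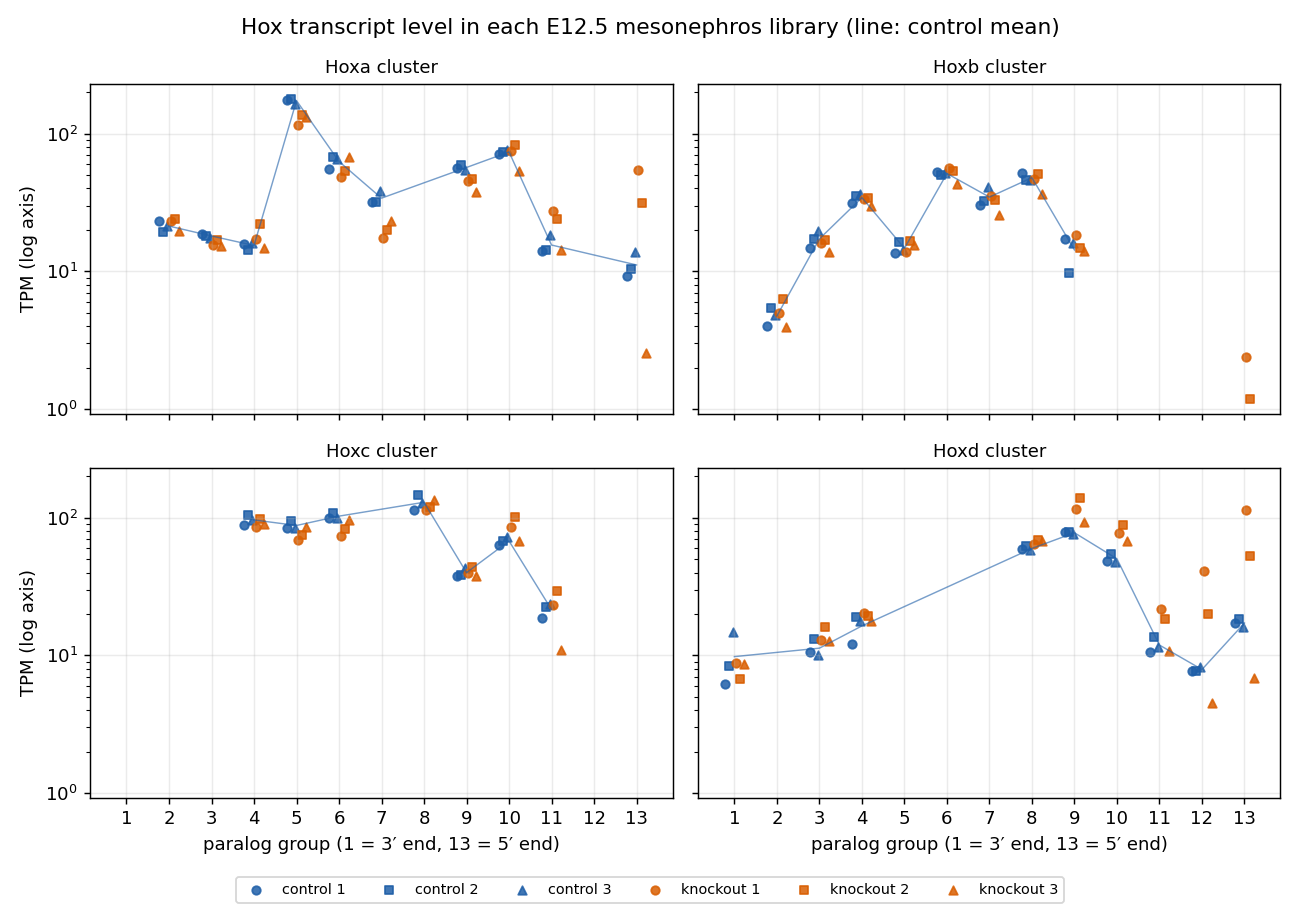
TPM on a log axis against paralog number for the 4 clusters, with 1 point per library (blue, controls; orange, knockouts; circle, square and triangle, replicates 1, 2 and 3) and a line through the control means; values of 0 (Hoxb13 in 4 libraries) are not drawn. Controls peak at Hoxa5, Hoxb6, Hoxc8 and Hoxd9, and the knockouts spread apart at Hoxd12, Hoxd13 and Hoxa13.

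Summed over all 36 genes, Hox transcripts made up 1512 ± 56.5 TPM in controls (n = 3). The Hoxc cluster gave 36.1% of this sum, Hoxa 32.04%, Hoxd 17.4% and Hoxb 14.5%. By position, the 15 central genes (groups 4 to 8) gave 63.6%, the 14 posterior genes (groups 9 to 13) 30.8% and the 7 anterior genes (groups 1 to 3) 5.61%. The control mesonephros was thus dominated by trunk-level Hox transcripts, with a smaller posterior share and little from the 3′ end.

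Each cluster had its own profile in controls. In Hoxa, Hoxa2 (21.3 ± 1.83 TPM), Hoxa3 (18.0 ± 0.655) and Hoxa4 (15.4 ± 1.04) lay well under the peak at Hoxa5. After Hoxa6 (62.7 ± 6.67 TPM) and a dip at Hoxa7 (34.0 ± 3.65) it was again high at Hoxa9 (56.8 ± 2.19) and Hoxa10 (73.6 ± 2.00). It was lower at Hoxa11 (15.5 ± 2.48 TPM) and Hoxa13 (11.1 ± 2.31). The Hoxa cluster therefore had a central and a posterior peak, separated at Hoxa7.

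Hoxb had the lowest peak of the clusters. Its highest members were Hoxb6 (51.3 ± 1.36 TPM) and Hoxb8 (47.9 ± 3.08), followed by Hoxb7 (34.6 ± 5.40) and Hoxb4 (34.3 ± 2.78). Hoxb3 was at 17.2 ± 2.34 TPM, Hoxb5 at 14.7 ± 1.35, Hoxb9 at 14.3 ± 3.93 and Hoxb2 at 4.74 ± 0.690. Hoxb13, which acts in the tail and the prostate, was listed at 0 in all 3 controls.

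Hoxc held 4 of the 5 highest Hox genes, all of them central. Its posterior members were Hoxc10 (67.8 ± 4.88 TPM), Hoxc9 (39.9 ± 3.10) and Hoxc11 (21.5 ± 2.59). In Hoxd, the anterior and central genes Hoxd1 (9.81 ± 4.40 TPM), Hoxd3 (11.3 ± 1.68) and Hoxd4 (16.4 ± 3.74) were low. The level was highest at Hoxd8 (59.9 ± 1.76 TPM), Hoxd9 (77.8 ± 1.89) and Hoxd10 (50.3 ± 3.998), and lower at Hoxd11 (11.9 ± 1.53) and Hoxd12 (7.90 ± 0.312). Hoxd13, at 17.2 ± 1.19 TPM, lay above Hoxd12 in every control, so the profile turned up again at the 5′ end of this cluster.

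The comparison of knockout with control mesonephroi asks how the Hox code stood after loss of Wnt9b. Hoxa5, Hoxa7 and Hoxa9 were lower and Hoxd8, Hoxd9 and Hoxd10 higher in every knockout than in every control, but no single Hox gene passed the test over all genes. Of the 36 genes, 35 reached 1 TPM or more in 3 or more libraries and were tested, and none was called. Hoxb13 fell short of this filter and was not tested. Limma on log2(TPM + 1) gave 0 Hox genes with an adjusted p under 0.05, 0 higher and 0 lower. The same test called 0.444% of all 17577 genes, 0.131% as higher and 0.313% as lower. Without knockout 3 it called 6 Hox genes, Hoxa13, Hoxd9, Hoxd10, Hoxd12 and Hoxd13 higher and Hoxa7 lower, against 1.38% of all genes. With any other single library left out it called 0 Hox genes. At an unadjusted p under 0.05, limma on all libraries picked 7 of the 35 Hox genes, against 11.3% of all genes tested. Limma-voom on the recovered reads called 3 Hox genes, Hoxd10 higher and Hoxa5 and Hoxa7 lower, against 1.62% of all genes. The authors' deposited table calls 5 of the 36 at an adjusted p under 0.05, Hoxd9 and Hoxd10 higher and Hoxa5, Hoxa7 and Hoxa9 lower, against 3.55% of the genes it tests (1.38% higher and 2.17% lower). The groups did not overlap for 8 of the 35 genes, 3 higher (Hoxd8, Hoxd9 and Hoxd10) and 5 lower (Hoxa3, Hoxa5, Hoxa7, Hoxa9 and Hoxc6), against 16.6% of all genes tested (8.14% higher and 8.49% lower).

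**Figure D2:**
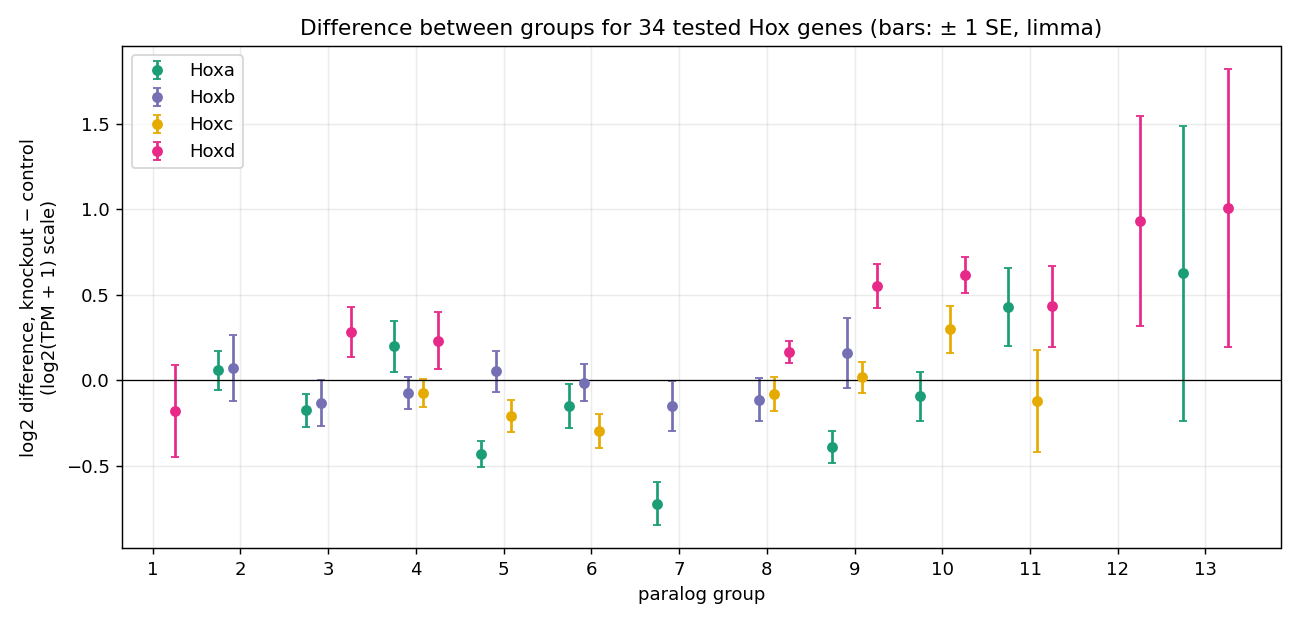
Difference between groups (knockout minus control, log2(TPM + 1) scale, bars ± 1 SE from limma) against paralog number for 34 tested Hox genes, coloured by cluster. Hoxd genes from group 8 on lie above 0, Hoxa5, Hoxa7 and Hoxa9 lie below it, and the error bars are widest at Hoxd12, Hoxa13 and Hoxd13.

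Among the central genes, Hoxa5 was at 176, 179 and 165 TPM in controls and at 116, 137 and 133 TPM in knockouts 1, 2 and 3. Every knockout lay below every control. The control mean was 1.35-fold the knockout mean, and the difference was -0.43 on the log2(TPM + 1) scale (SE 0.077; limma adjusted p = 0.0706), which missed the threshold. In the authors' deposited table the log2 fold change is -0.42 and the adjusted p 0.000739, and limma-voom gave an adjusted p of 0.0374.

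Hoxa7, a trunk gene next to Hoxa6 in the cluster, had the most negative difference of the Hox genes. It was at 31.7, 32.03 and 38.2 TPM in controls and at 17.6, 19.9 and 23.4 TPM in knockouts. The groups were well apart, with a control mean 1.68-fold the knockout mean. The log2 difference was -0.72 (SE 0.13; limma adjusted p = 0.0640). In the authors' deposited table it is -0.74, at an adjusted p of 1.11e-05, and limma-voom gave an adjusted p of 0.0114. Without knockout 3 the limma value was -0.82 (adjusted p = 0.0268).

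Hoxc6, which marks the forelimb and thoracic level, was at 99.8, 108 and 100.3 TPM in controls and at 73.7, 82.5 and 96.2 TPM in knockouts. Knockout 3 came close to the lowest control, and the log2 difference was -0.29 (SE 0.098; limma adjusted p = 0.301). Hoxc8, the highest gene of its cluster, was at 114, 120 and 134 TPM in knockouts, with knockouts 2 and 3 inside the control range and knockout 1 just below it (log2 difference -0.078, SE 0.099; limma adjusted p = 0.829). Hoxb6, the highest of the Hoxb cluster, was at 52.3, 49.7 and 51.8 TPM in controls and at 56.6, 53.9 and 43.0 TPM in knockouts. Its controls lay inside the spread of the knockouts, and its log2 difference was -0.012 (SE 0.11; limma adjusted p = 0.979).

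Hoxd8, the central gene nearest to the posterior part of the Hoxd cluster, was at 59.3, 61.9 and 58.5 TPM in controls and at 64.9, 68.7 and 68.2 TPM in knockouts. The groups did not overlap, but the gap was small, its log2 value being 0.17 (SE 0.065; limma adjusted p = 0.388). Over the 15 central genes, 4 log2 differences were positive and 11 negative, with a median of -0.078. Without knockout 3, 6 were positive and 9 negative. Over all genes tested the median was -0.0075, and 48.2% of the differences were positive. The other central genes had means in knockouts of 18.0 ± 3.75 TPM (Hoxa4), 56.7 ± 9.75 (Hoxa6), 32.5 ± 2.19 (Hoxb4), 15.3 ± 1.44 (Hoxb5), 31.1 ± 5.004 (Hoxb7), 44.6 ± 7.496 (Hoxb8), 91.6 ± 5.83 (Hoxc4), 76.2 ± 8.18 (Hoxc5) and 19.1 ± 1.14 (Hoxd4), each overlapping its controls.

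In the posterior part, the members of group 9 went apart by cluster. Hoxa9 was at 56.7, 59.0 and 54.6 TPM in controls and at 45.2, 47.1 and 37.7 TPM in knockouts. Every knockout was lower than every control. The log2 difference was -0.39 (SE 0.095; limma adjusted p = 0.166). In the authors' deposited table it is -0.38, at an adjusted p of 0.0118. Its paralog Hoxd9 was at 79.4, 78.3 and 75.7 TPM in controls and at 116, 139 and 92.9 TPM in knockouts. Here every knockout was higher than every control. The log2 difference was 0.55 (SE 0.13; limma adjusted p = 0.146). In the authors' deposited table it is 0.59, at an adjusted p of 0.000629. Without knockout 3 the limma value for Hoxd9 was 0.70 (adjusted p = 0.0201). Hoxb9 (15.8 ± 2.31 TPM in knockouts) and Hoxc9 (40.5 ± 3.02) overlapped their controls.

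Hoxd10, a gene of the lumbar level and the hindlimb, was at 48.7, 54.9 and 47.4 TPM in controls and at 77.2, 88.3 and 68.1 TPM in knockouts. The lowest knockout was above the highest control. The knockout mean was 1.55-fold the control mean. The log2 difference was 0.61 (SE 0.11; limma adjusted p = 0.0603), which missed the threshold. In the authors' deposited table it is 0.64, at an adjusted p of 5.75e-05. Limma-voom gave an adjusted p of 0.0206, and limma without knockout 3 gave 0.71 with an adjusted p of 0.0244. Of its paralogs, Hoxc10 was at 63.1, 67.5 and 72.9 TPM in controls and at 85.7, 101 and 67.5 TPM in knockouts, with knockout 3 inside the control range. Hoxa10, which acts in the vas deferens, was at 71.7, 73.4 and 75.7 TPM in controls and at 74.8, 82.3 and 53.1 TPM in knockouts. Only knockout 3 lay below the Hoxa10 controls.

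Promoters are shown for 3 genes: Hoxa5, the highest gene and lower in the knockouts; Hoxd10, which was higher; and Hoxd13, which had the largest SD in TPM among knockouts. They are the 250 bases before the RefSeq start of each gene on GRCm38.p6, at chr6:52204588-52204837 (minus strand) for Hoxa5, chr2:74691641-74691890 (plus strand) for Hoxd10 and chr2:74667975-74668224 (plus strand) for Hoxd13. These windows hold no exon of GENCODE M21. Capitals mark the CCAAT box (CCAAT), the TATA box (TATAAA) and the core of the TCF/LEF motif of Wnt signalling (CTTTGA), searched on both strands.
Hoxa5: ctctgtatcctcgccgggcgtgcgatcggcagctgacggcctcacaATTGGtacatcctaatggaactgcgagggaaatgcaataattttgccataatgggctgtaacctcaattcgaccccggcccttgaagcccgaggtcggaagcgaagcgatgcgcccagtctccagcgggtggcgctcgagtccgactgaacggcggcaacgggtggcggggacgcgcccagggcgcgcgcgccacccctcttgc
Hoxd10: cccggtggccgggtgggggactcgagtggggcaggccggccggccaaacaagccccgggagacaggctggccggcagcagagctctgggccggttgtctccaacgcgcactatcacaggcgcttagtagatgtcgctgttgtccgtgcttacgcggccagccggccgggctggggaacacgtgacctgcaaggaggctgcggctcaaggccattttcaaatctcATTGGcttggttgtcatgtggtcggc
Hoxd13: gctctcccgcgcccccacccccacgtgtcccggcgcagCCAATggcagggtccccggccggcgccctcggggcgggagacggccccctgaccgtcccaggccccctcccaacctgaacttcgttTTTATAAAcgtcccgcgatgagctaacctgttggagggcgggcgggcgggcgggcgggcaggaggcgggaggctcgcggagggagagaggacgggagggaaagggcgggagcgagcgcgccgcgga
All 3 windows hold CCAAT, on either strand, Hoxd13 also holds TATAAA, on both strands at overlapping bases, and none of the 3 holds CTTTGA. Over the 21 Hox genes with a promoter in the RefSeq table, which have 23 such windows because Hoxa10 and Hoxd11 have 2 starts each, 13 windows (56.5%) hold CCAAT against 33.8% of the 32851 windows of all genes. The TCF/LEF core is in 3 of the 23 (13.04%) against 13.8%, and TATAAA is in 4 (17.4%) against 12.4%. A motif of joint Hox and Pbx binding, TGATTNAT, is in 2 (8.70%) against 2.82%. The match shows only that the letters are in the window.

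The knockouts, already apart at Hoxa10 and Hoxc10, spread most widely relative to their mean at groups 12 and 13. Hoxd13, which acts in the digits and the caudal genital tract, was at 17.1, 18.4 and 16.1 TPM in controls and at 114, 53.1 and 6.83 TPM in knockouts 1, 2 and 3. Knockouts 1 and 2 lay far above the controls and knockout 3 below them. The highest knockout was 16.8-fold the lowest, against 1.15-fold among controls, and the recovered reads behind the knockout values numbered 2613, 1107 and 142. The log2 difference over all libraries was 1.01 (SE 0.81; limma adjusted p = 0.707). It was 2.12 without knockout 3 (adjusted p = 0.0245) and 0.18 at its lowest among the omissions, without knockout 1.

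Its neighbour Hoxd12 was at 7.71, 7.74 and 8.26 TPM in controls and at 41.4, 19.8 and 4.52 TPM in knockouts. The 3 knockouts kept the order seen for Hoxd13, with knockout 3 below all controls. The log2 difference was 0.93 (SE 0.61; limma adjusted p = 0.636), 1.74 without knockout 3 (adjusted p = 0.0390) and 0.27 without knockout 1. Hoxa13, on another chromosome, was at 9.29, 10.3 and 13.7 TPM in controls and at 54.4, 31.2 and 2.54 TPM in knockouts. The order of the knockouts was again the same. The log2 difference was 0.63 (SE 0.86; limma adjusted p = 0.844), 1.82 without knockout 3 (adjusted p = 0.0265) and -0.17 without knockout 1. Hoxb13 was listed at 0 in controls and in knockout 3, and at 2.37 and 1.19 TPM in knockouts 1 and 2, where 24 and 11 reads were recovered.

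**Figure D3:**
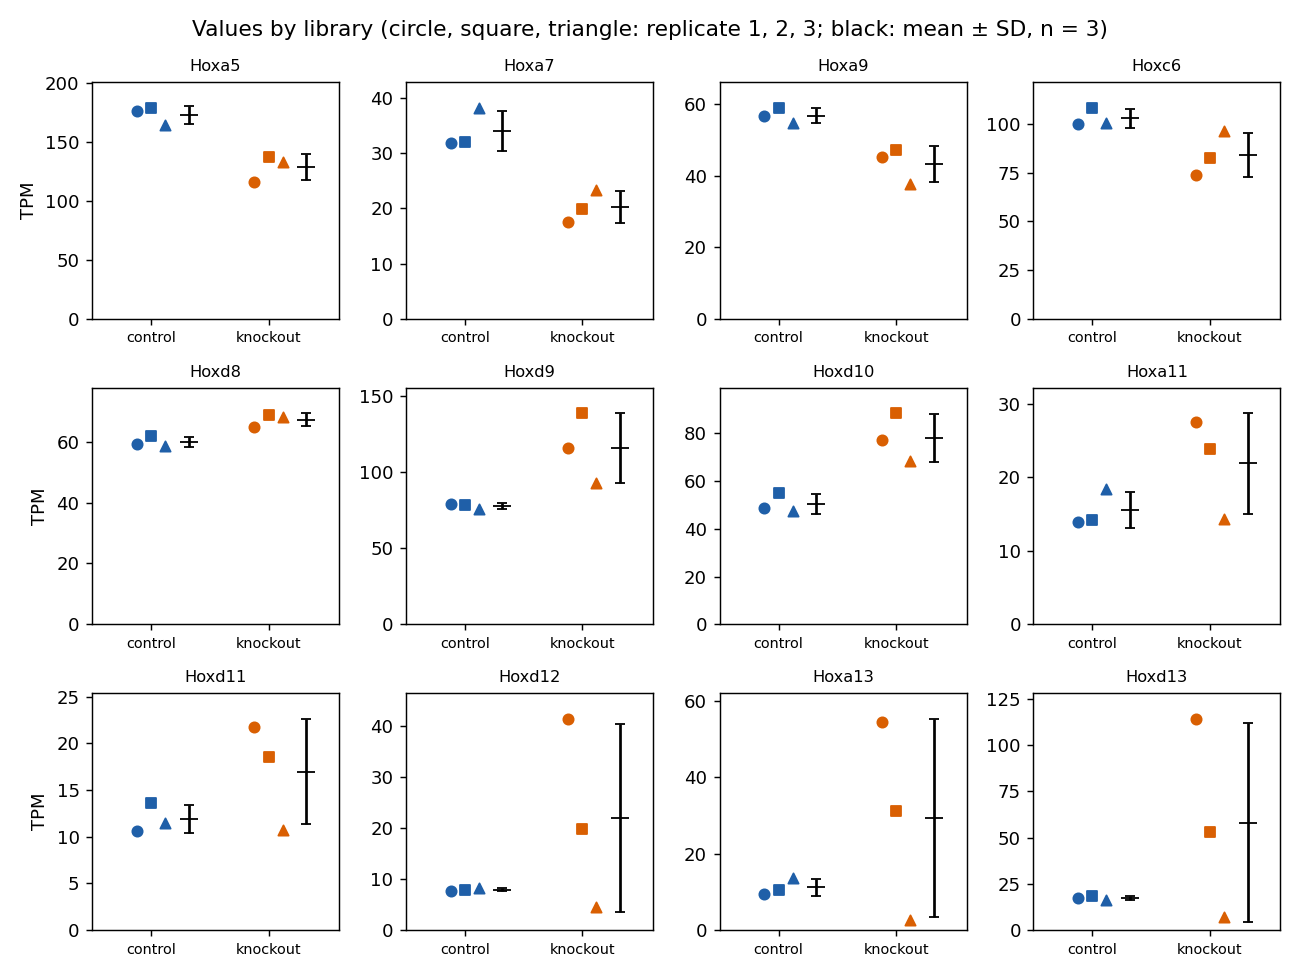
TPM in each library for 12 Hox genes, controls in blue and knockouts in orange, with circle, square and triangle for replicates 1, 2 and 3 and black bars for the mean ± SD (n = 3). The groups are apart for Hoxa5, Hoxa7, Hoxa9, Hoxc6, Hoxd8, Hoxd9 and Hoxd10, whereas for Hoxd12, Hoxa13 and Hoxd13 knockouts 1 and 2 lie above and knockout 3 below the controls.

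Group 11, needed for the metanephros, showed the same order of knockouts on a smaller scale. Hoxd11 was at 10.6, 13.6 and 11.5 TPM in controls and at 21.7, 18.5 and 10.7 TPM in knockouts. Hoxa11 was at 13.9, 14.2 and 18.4 TPM in controls and at 27.5, 23.9 and 14.2 TPM in knockouts. In both genes knockout 3 lay within the control range and the other knockouts above it. Hoxc11 differed from them, at 18.6, 22.4 and 23.6 TPM in controls and at 23.1, 29.3 and 11.05 TPM in knockouts, with knockout 2 the highest. The limma adjusted p was 0.564 for Hoxd11, 0.551 for Hoxa11 and 0.919 for Hoxc11. Without knockout 3 the limma log2 difference went from 0.43 to 0.71 for Hoxd11 (adjusted p = 0.0711), from 0.43 to 0.70 for Hoxa11 (adjusted p = 0.0772) and from -0.12 to 0.27 for Hoxc11 (adjusted p = 0.395).

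The spread of the posterior genes was thus wide among knockouts and narrow among controls. Over the 13 tested, the median coefficient of variation was 7.76% in controls and 21.6% in knockouts, against 9.64% and 11.9% over all genes tested. Of the 13 posterior genes tested, 10 log2 differences were positive and 3 negative, with a median of 0.43. Without knockout 3, 12 were positive and the median was 0.70. Without knockout 1, 9 were positive and the median was 0.18.

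The anterior genes showed little difference. Hoxa3, a gene of the neck and pharyngeal region, was at 18.6, 18.1 and 17.3 TPM in controls and at 15.6, 16.8 and 15.3 TPM in knockouts. The groups did not overlap, but the log2 difference was small, at -0.17 (SE 0.096; limma adjusted p = 0.575). The other knockout means were 22.3 ± 2.41 TPM for Hoxa2, 5.08 ± 1.18 for Hoxb2, 15.6 ± 1.70 for Hoxb3, 8.10 ± 1.15 for Hoxd1 and 13.9 ± 1.80 for Hoxd3, each overlapping its controls. Of the 7 anterior genes, 3 log2 differences were positive and 4 negative, with a median of -0.055.

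Summed by cluster, Hoxd transcripts came to 252, 276 and 260 TPM in controls and to 478, 429 and 291 TPM in knockouts. Every knockout lay above every control, with a ratio of means of 1.52. Of the 9 Hoxd genes, 8 had a positive log2 difference, Hoxd1 being the exception, and the median was 0.43. Most of the gap came from the 5 posterior Hoxd genes, which summed to 165 ± 7.17 TPM in the control group and to 291 ± 96.9 TPM in the knockout group. Hoxa transcripts summed to 475, 490 and 488 TPM in controls and to 444, 460 and 383 TPM in knockouts, again without overlap but in the other direction. The central Hoxa genes alone summed to 286 ± 7.23 TPM in the control group and to 224 ± 20.95 TPM in the knockout group. The Hoxb sum (219 ± 9.52 TPM in controls, 212 ± 26.3 in knockouts) and the Hoxc sum (546 ± 36.9 and 521 ± 28.6) overlapped between groups. The sum over all 36 genes was 1561 ± 158 TPM in knockouts, also overlapping the controls. The knockouts therefore had a Hoxd share of 25.6% of Hox transcripts against 17.4% in controls, while the totals over all Hox genes overlapped.

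Summed markers of caudal tissue, like those of several other tissues, had the order of knockouts seen for the most 5′ Hox genes. The 3 genes of group 13 summed to 26.4, 28.8 and 29.8 TPM in controls and to 171, 85.5 and 9.36 TPM in knockouts 1, 2 and 3. The 5 markers of hindlimb or cloacal tissue (Isl1, Shh, Pitx1, Tbx4 and Tbx5) summed to 20.1, 19.0 and 25.9 TPM in controls and to 104, 49.1 and 8.45 TPM in knockouts. They had the same order of knockouts, and none of the 4 tested was called. Isl1, a gene of hindlimb and cloacal mesenchyme, had the highest mean, at 66.9, 32.9 and 2.44 TPM in knockouts against 10.6 to 13.9 TPM in controls. Pitx1 was at 9.66, 4.53 and 0.449 TPM in knockouts and 0.813 to 3.24 TPM in controls. Shh was at 21.5, 9.92 and 5.16 TPM in knockouts, with knockout 3 close to the lowest control (5.27 TPM). Tbx4 was at 4.73, 1.47 and 0.351 TPM in knockouts, so knockout 2 also lay below its controls (1.74 to 1.83 TPM). Tbx5, the forelimb marker, was under 1 TPM in all 6 libraries. The sum of neural crest markers ran from 17.8 to 20.9 TPM in controls and was 37.3, 23.9 and 19.3 TPM in knockouts 1, 2 and 3. Germ cell markers summed to 27.2, 4.27 and 4.79 TPM in controls and to 36.6, 21.3 and 8.42 TPM in knockouts. Metanephric markers summed to 77.5, 86.4 and 79.2 TPM in controls and to 103, 98.6 and 83.8 TPM in knockouts. The gonadal, duct and neural tube sums also fell from knockout 1 to knockout 3. Sums of endothelial, macrophage, erythroid and muscle markers did not, and that of mesonephric mesenchyme was 1629, 1727 and 1620 TPM in knockouts. The part of these tissues, and of the gonadal, duct, mesenchymal and endothelial markers given earlier, in the Hox values was not tested.

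**Figure D4:**
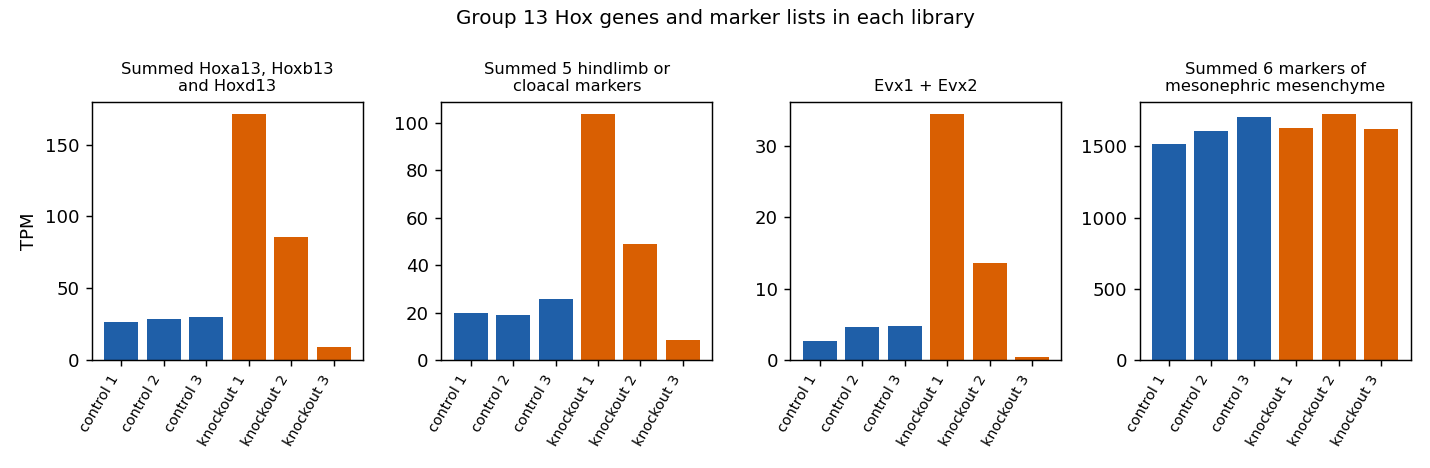
Summed TPM per library (blue, controls; orange, knockouts) for the group 13 Hox genes, 5 hindlimb or cloacal markers, the flanking genes Evx1 and Evx2, and 6 markers of mesonephric mesenchyme. In the first 3 panels knockout 1 is highest, knockout 2 next and knockout 3 lowest of all libraries, at 9.36, 8.45 and 0.472 TPM. The mesenchymal sum, with Col1a1 its highest member and members called in both directions, lies between 1519 and 1727 TPM. Within it, Osr1 had the order of the first 3 panels and Pdgfra the reverse order of knockouts.

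Genes that flank the clusters were mostly steady. Of 14 flanking genes in the table, 12 were tested and none was called (0 by limma, also at an unadjusted p under 0.05, and 0 in the authors' deposited table), with a median log2 difference of -0.0069. The most abundant were Hnrnpa1, which encodes an RNA-binding protein, at 1825 ± 113 TPM in controls and 1802 ± 67.5 in knockouts, and Cbx5, which encodes a heterochromatin protein, at 193 ± 10.4 and 187 ± 13.4 TPM. Skap2 was higher in every knockout (9.78 to 10.3 TPM) than in every control (7.93 to 9.28 TPM). The clearest exceptions were the homeobox genes Evx1 and Evx2, which lie beside group 13 at the 5′ ends of Hoxa and Hoxd. They were picked out after their values were seen, and Evx2 fell short of the filter and was not tested. Evx1 was at 1.89, 4.12 and 3.99 TPM in controls and at 22.3, 8.74 and 0.415 TPM in knockouts, and Evx2 at 0.785, 0.462 and 0.862 TPM in controls and at 12.1, 4.83 and 0.057 TPM in knockouts. Both had the order of knockouts seen for Hoxa13 and Hoxd13.

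Of the long noncoding RNA genes inside the clusters, 11 of the 18 listed were in the table, 10 were tested and none was called (0 by limma, also at an unadjusted p under 0.05, and 0 in the authors' deposited table). The highest were Hoxb5os, antisense to Hoxb5, at 22.7 ± 2.47 TPM in controls and 24.99 ± 6.31 in knockouts, and Haglr of the Hoxd cluster, at 15.9 ± 1.24 and 19.8 ± 2.93 TPM. At the 5′ end of Hoxa, Hottip was at 1.00, 0.631 and 1.30 TPM in controls and at 4.95, 1.95 and 0.083 TPM in knockouts, and Hoxa11os, antisense to Hoxa11, at 4.11, 5.20 and 3.85 TPM in controls and at 10.7, 7.05 and 3.65 TPM in knockouts. Hotair, between Hoxc11 and Hoxc12, was at 2.46, 2.17 and 4.16 TPM in controls and at 3.63, 3.795 and 0.475 TPM in knockouts. These 3 were also picked out after their values were seen. Knockout 3 was the lowest library for each of them.

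The partner proteins of Hox factors showed no call. All 9 cofactor genes of the TALE class were tested and 0 passed limma (1 at an unadjusted p under 0.05). Pbx2, the highest, was at 212 ± 8.73 TPM in controls and 214 ± 17.4 in knockouts. Pknox2, the 1 cofactor gene that the authors' deposited table calls, was at 13.5, 15.0 and 14.7 TPM in controls and at 17.9, 16.99 and 19.4 TPM in knockouts, without overlap.

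Among regulators of Hox genes, none of 22 Polycomb repressor genes, 10 trithorax-type activator genes and 6 tested axial regulators passed limma (1, 0 and 0 at an unadjusted p under 0.05, and 0 of each in the authors' deposited table). Of the Polycomb list, the most abundant were Rbbp7 (383 ± 9.24 TPM in controls, 405 ± 43.2 in knockouts) and Rbbp4 (193 ± 3.97 and 205 ± 11.7), which encode histone-binding proteins. Among the activators they were Wdr5 (97.5 ± 5.33 and 104 ± 4.47 TPM) and Men1 (89.5 ± 1.598 and 87.7 ± 8.33). Of the axial regulators, Gdf11, a secreted signal for the switch to tail-level Hox genes, was at 24.8 ± 1.86 TPM in controls and 27.9 ± 2.59 in knockouts, and Lin28b at 7.95 ± 1.44 and 8.03 ± 0.862 TPM. Sall4, a stem cell and limb factor picked out after its values were seen, was at 1.95, 2.87 and 1.96 TPM in controls and at 16.3, 7.12 and 1.596 TPM in knockouts, again with knockout 1 highest and knockout 3 lowest. Of the 8 partners and targets of group 11 in the kidney, 6 were tested and 0 passed limma (1 at an unadjusted p under 0.05). The most abundant, Wt1 and Itga8, were at 229 ± 15.4 and 189 ± 10.5 TPM in controls and at 236 ± 3.86 and 149.9 ± 39.1 TPM in knockouts.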

How the data were processed

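Poly(A)-selected RNA of 6 mesonephroi was sequenced from both ends (150 bases each), per the labels' protocols. The authors deposited 1 table with a TPM column per embryo, mean TPM columns that were not used, and their log2 fold change, p-value and adjusted p-value, per the file headers. Per the submitters' processing notes, DESeq2 and the build GRCm39 were used. The annotation, like the aligner and the way reads were counted, is not given in the sources used here.

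Samples were grouped by title. The test was limma 3.58.1 (R 4.3.3), 2-sided, with a mean-variance trend and no term but genotype, on log2(TPM + 1) of genes that reached 1 TPM in 3 or more libraries, and Benjamini-Hochberg adjustment over 17577 genes with a threshold of 0.05. A difference on this scale understates the change of low genes. Replicates are embryos by their titles.

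The ratios of a gene's TPM values between libraries are those of its reads, which gave whole reads within 0.02 reads for 20032 of 20033 genes. In a check on 1000 genes, 100.0% came out whole, and 0.2% after random changes. Any factor shared by the 6 values of a gene cannot be seen, so totals (28408222 to 32974958) are lower bounds. These reads entered limma-voom, 1 of the alternatives, with other pseudocounts, no filter, 2 scalings, a replicate block and the omission of each library. The fits were also tested on simulated data.

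Full statistics were given for those with an unadjusted p under 0.05, those called by the authors' table and the highest of each cluster. From each list of related genes the 2 of highest level were named, apart from items not reported here, among them 1 Hox gene. Other genes named were chosen after their values were seen, as was the omission of libraries from counts by class. The members and lists were chosen with earlier results of these data known. Sums over members were not tested. Homeoboxes were compared in GENCODE M21 transcripts for 36 genes, and promoters were read from RefSeq for 21.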

Additional observations from a re-analysis of the deposited data

How the results depend on the processing

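Of 34 Hox genes tested, 22 kept the sign of their log2 difference in all 13 alternatives. No Hox gene was called with a pseudocount of 0.1 or 0.5, without the filter, under either scaling or with a replicate block (0 higher and 0 lower). Limma-voom called 1 higher and 2 lower. Over the omission of each library, 0 to 5 were called higher and 0 to 1 lower, the calls coming from the fit without knockout 3 (Hoxa7, Hoxa13, Hoxd9, Hoxd10, Hoxd12 and Hoxd13), which called 1.38% of all genes. The cause was not tested. The log2 difference of Hoxb6 changed sign in limma-voom (0.0058), and those of 12 Hox genes, Hoxb6 among them, took both signs when each library was left out in turn, none being called with its sign changed. Over the omissions, the log2 difference ranged from -0.0019 to 0.15 for Hoxa2, -0.22 to 0.092 for Hoxa10, -0.17 to 1.82 for Hoxa13, -0.067 to 0.21 for Hoxb2, -0.0041 to 0.12 for Hoxb5, -0.088 to 0.11 for Hoxb6, -0.21 to 0.028 for Hoxb8, -0.073 to 0.30 for Hoxb9, -0.16 to 0.0075 for Hoxc8, -0.039 to 0.080 for Hoxc9, -0.40 to 0.27 for Hoxc11 and -0.43 to 0.13 for Hoxd1. The ratio of summed Hoxd transcripts stayed between 1.37 and 1.73.

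No pairing by mouse number was seen: the deviations of same-numbered libraries correlated at -0.064, 0.05 and -0.051, and 1 of 3 controls correlated best with its own number. With 3 libraries a group, this check has little power and cannot show that pairing was absent. With the replicate block the limma adjusted p of Hoxa5 was 0.161.

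Precision is limited by 3 embryos a group and, for Hoxb13, by few reads. Intervals from reads would cover counting error only. In GENCODE M21, 16 of the 36 Hox genes share exon bases with another gene, 9 on the same strand and 10 on the other, and whether reads were counted by strand is not given, so such genes could share reads. Hoxd10 shares with Gm28309, Hoxa7 with the antisense Hoxaas3 and Hoxa9 with Mir196b, whereas none was found for Hoxa5, Hoxd9, Hoxd12, Hoxd13 and Hoxa13.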
